A study of Mus musculus with 48 samples.

Results

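Platelet-derived growth factor (PDGF) signaling and the markers of fibroblasts were followed at the mRNA level in 48 mouse mammary tumors, 4 from each of 12 transplantable models. The 10 genes were taken by symbol from the 19938 genes measured on the arrays: the ligand genes Pdgfa, Pdgfb, Pdgfc and Pdgfd, the receptor genes Pdgfra and Pdgfrb, and the fibroblast and stroma markers Fap, Acta2, Pdpn and Thy1. Each had a single annotated transcript cluster, the set of probes that reports a gene on the array. The genes were listed by symbol and not by a cutoff on signal, but earlier results of these data were known when the list was chosen. All 12 groups were untreated tumors that differed in the implanted cell line and its strain. The models EMT-6, 4T1, TS/A-E1, D2A1 and F311 were labelled Balb/c (BALB/c below) and came from spontaneous tumors, whereas Met-1, MVT-1, M6, HRM-1 and 6DT1 were labelled FVB/N and came from genetically engineered mice. E0771 was a C57Bl/6 model of spontaneous origin and R3T an engineered 129Sv model. According to the study's methods, MVT-1 was a cell line from a tumor of a mouse transgenic for Myc and VEGF under the MMTV promoter, which is active in mammary epithelium. The sources used here do not name the transgenes of the other engineered models. Cells were placed in the number 4 mammary fat pad of immunocompetent mice of the same strain, and the tumors were taken at a diameter of 0.5 to 1.0 cm. The labels give no age or sex of the hosts. The study's methods state female hosts of 6 to 8 weeks for its mammary tumors, with details for only some of the 12 models. Each model is therefore a single line grown in a host with intact stroma and immune cells.

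PDGFs are dimeric growth factors that act mainly on mesenchymal cells. PDGF-A and PDGF-B are released ready to bind, whereas PDGF-C and PDGF-D carry an extra domain that must be cut off by proteases such as plasminogen activators. PDGF-A and PDGF-C signal mainly through the receptor PDGFRα, PDGF-D through PDGFRβ, and PDGF-B through both. In carcinomas the ligands often come from tumor cells, endothelium and platelets, while the receptors are found on fibroblasts and pericytes, the cells that cover small blood vessels. Fap encodes a membrane protease of activated fibroblasts, Acta2 the smooth muscle actin of myofibroblasts, pericytes and smooth muscle, Pdpn a membrane glycoprotein of fibroblasts and lymphatic endothelium, and Thy1 a surface protein of fibroblasts that T cells also carry in the mouse.

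Pdgfc and Pdgfd encode the ligands that need cutting, and their start sites are shown because the signal of the former mostly separated the models and that of the latter varied as much among tumors of a model. The sequences run from 250 bases before to 50 bases after the RefSeq start (build GRCm38.p6, plus strand for both), with a CArG box, the binding motif of serum response factor, in capitals in the first and TATAAA in capitals in the second.
Pdgfc, chr3:81036166-81036465: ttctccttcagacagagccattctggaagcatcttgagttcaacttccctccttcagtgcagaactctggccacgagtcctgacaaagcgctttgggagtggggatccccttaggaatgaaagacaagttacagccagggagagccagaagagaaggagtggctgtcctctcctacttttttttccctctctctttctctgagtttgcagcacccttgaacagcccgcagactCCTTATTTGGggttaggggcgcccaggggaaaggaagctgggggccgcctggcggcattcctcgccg
Pdgfd, chr9:6168236-6168535: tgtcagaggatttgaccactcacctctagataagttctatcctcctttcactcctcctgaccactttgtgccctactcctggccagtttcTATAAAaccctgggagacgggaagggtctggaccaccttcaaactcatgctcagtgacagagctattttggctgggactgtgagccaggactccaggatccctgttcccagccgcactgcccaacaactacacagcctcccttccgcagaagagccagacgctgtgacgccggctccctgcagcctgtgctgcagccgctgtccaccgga
The CArG box of Pdgfc lies at positions -17 to -8 from the start site, and a box with the exact consensus was found on either strand in 1.63% of 32851 windows of this length. TATAAA lies at -160 to -155 in the Pdgfd window and was found in 13.6% of all windows. Of the other members, Pdgfa, Pdgfra, Acta2 and Pdpn had windows in the table, and none of them held an exact match to either motif. With 1 base off the consensus allowed, a search added after the windows had been seen, the Acta2 window held 2 CArG boxes and the Pdgfd window 1, and 21.1% of all windows held at least 1. GGGCGG, the core of a GC box, was in both Pdgfa windows and in the Pdpn window, against 35.7% of all windows. None of these motifs overlapped another in the 2 windows printed.

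The deposited values were log2 signals, with array medians of 6.76 to 6.99, so that a difference of 1 is a doubling of signal. Signal includes background and depends on the probes, so levels were compared between tumors and never between genes, with a precision set by the 4 tumors of each model. The labels call the tumors of a model separate biological replicates. Krt8, a keratin of luminal epithelium, had model means of 11.01 to 13.33, but Epcam ran from 6.31 in D2A1 to 11.58 in M6 and Cdh1 from 7.30 in E0771 to 11.81 in M6. Epithelial markers were thus low in some of these carcinoma models. In 8 tumors, genes of adipocytes or of B cells stood far above the series mean, with a mean excess over 2.5 on the log2 scale: 4T1 replicate 3, 6DT1 replicates 2 and 3, E0771 replicate 1, EMT-6 replicate 3, F311 replicates 1 and 2 and Met-1 replicate 2. They are called host-rich tumors here, and the calls that differ without them are given with each gene. In bulk RNA, fewer cells of a type and less RNA per cell cannot be told apart, nor can RNA of implanted cells and of host stroma.

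Each of the 10 genes passed limma's F-test over the 12 models at an adjusted p under 0.05, as did 70.4% of all genes, so passing this test is not particular to them. They differed more in how much of their spread lay between models. Between models lay 89.4% of the variance of Pdgfb, 84.6% of that of Pdgfc and 77.5% of that of Pdpn. The share was 44.2% for Acta2, 45.5% for Fap, 47.0% for Pdgfa, 48% for Pdgfd, 55.6% for Pdgfrb and 56.0% for Thy1. The median over all genes was 62.4%, so the first 3 genes lay above it and the other 7, with Pdgfra the nearest, below it. The SD within models was 0.24 for Pdgfb and 0.40 to 0.73 for the other 9, against a median of 0.15 over all genes. Tumors of the same model therefore varied more in these genes than in a typical gene.

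Among the ligands, Pdgfc (gene ID 54635, transcript cluster 10492689) covered the widest range. The model means spanned 8.34 in E0771 to 11.53 in 4T1, a range of 3.18 or 9.09-fold, wider than that of 97.2% of all genes, for which the median range was 0.68 (adjusted p = 3.53e-11). The 4T1 tumors had log2 signals of 11.39, 11.48, 11.38 and 11.86, and all lay above every tumor of the other models. The E0771 tumors had 9.03, 7.50, 8.51 and 8.33, the lowest group, although M6 tumors overlapped them with 7.86, 9.06, 10.44 and 8.24. Against the mean of the other 11 models, 4T1 was higher by 1.54 (SE 0.22, adjusted p = 1.01e-06) and E0771 lower by 1.94 (SE 0.22, adjusted p = 9.34e-09), log2 differences that exceed the spread within models. MVT-1 was also higher by 0.95, and M6, TS/A-E1 and R3T were lower by 1.33, 0.94 and 0.67. The R3T call was lost without R3T replicate 1 (-0.65, adjusted p = 0.0604) or replicate 3 (-0.55, adjusted p = 0.113). Met-1 passed narrowly at 0.58 (adjusted p = 0.0492), and that call was lost in 38 of the 48 fits that left out a tumor, with differences of 0.49 to 0.79. Of the 66 pairs of models, 40 differed in Pdgfc, against 26.5% of all pairs over all genes and a median of 17 pairs for a gene. In the order of the model means, no neighboring pair passed the test, and only 4T1 with MVT-1 and HRM-1 with R3T had tumors that did not overlap.

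Pdgfb (gene ID 18591, transcript cluster 10430660), the ligand that engages both receptors, was above the mean of the other models in 4 models and below it in 6, with F311 and 6DT1 in between. Model means ran from 8.44 in E0771 to 10.33 in HRM-1, a range of 1.89 or 3.71-fold (adjusted p = 1.28e-13). HRM-1 tumors had log2 signals of 10.45, 10.13, 10.50 and 10.25, 4T1 tumors 10.07, 10.74, 9.95 and 9.92, R3T tumors 10.07, 9.66, 10.05 and 10.14, and TS/A-E1 tumors 9.89, 10.09, 9.57 and 9.82. E0771 tumors had 8.84, 8.01, 8.51 and 8.41. No E0771 tumor reached any tumor of these 4 models. HRM-1 was higher than the mean of the other 11 by 1.13 (SE 0.12, adjusted p = 3.11e-09), 4T1 by 0.96, R3T by 0.75 and TS/A-E1 by 0.60. E0771 was lower by 0.93 (SE 0.12, adjusted p = 2.08e-07), and MVT-1, Met-1, D2A1, M6 and EMT-6 by 0.38 to 0.53. The EMT-6 call was lost without EMT-6 replicate 2 (-0.33, adjusted p = 0.0846). A step between neighbors in the order passed only from F311 at 9.47 to 6DT1 at 9.02 (adjusted p = 0.0389), and tumors of these models still overlapped. Pairs that differed numbered 41 of 66. Without the host-rich tumors 6DT1, then represented by replicates 1 and 4, also passed, lower by 0.53 (adjusted p = 0.00829).

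Pdgfd (gene ID 71785, transcript cluster 10583021) was dim, with a signal below the array median in 21 of 48 tumors. Met-1 tumors had log2 signals of 8.14, 7.53, 8.43 and 7.76 and HRM-1 tumors 5.93, 6.15, 6.89 and 6.34. These groups did not overlap, and their means of 7.97 and 6.33 were the highest and the lowest of the series (adjusted p = 0.0061 for the F-test). Met-1 was higher than the other 11 models by 0.97 (SE 0.26, adjusted p = 0.00447). HRM-1 was lower by 0.81 (SE 0.26, adjusted p = 0.0184), a call that was lost without HRM-1 replicate 1 (-0.68, adjusted p = 0.0989) or replicate 2 (-0.75, adjusted p = 0.0658). In 6DT1, replicates 2 and 3 had 8.50 and 8.59 but replicates 1 and 4 only 6.54 and 7.15. The high pair are the host-rich tumors of that model, with adipocyte scores, the mean over the 8 adipocyte genes, of 3.39 and 3.69 against -1.52 and -1.56 in the others. Whether adipose tissue contributes to this difference was not tested. Pairs that differed numbered 11 of 66, but 17 without 6DT1 replicate 1 and 7 without Met-1 replicate 1 or replicate 3.

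Pdgfa (gene ID 18590, transcript cluster 10535043) had the narrowest range of the 10 genes. Model means ran from 9.93 in M6 to 10.86 in HRM-1, a range of 0.93 or 1.90-fold (adjusted p = 0.00807). No model passed against the other 11. The F311 tumors had log2 signals of 9.36, 11.21, 11.53 and 11.29, so that replicate 1 was the lowest tumor of the series and the other three were the highest of the series. That tumor is host-rich, with an adipocyte score of 3.28 and a B cell score of 5.01. Without it 23 of 66 pairs of models differed in place of 12. Without the 8 host-rich tumors 31 pairs differed and 6 contrasts of a model with the other 11 passed. Over all genes 33.8% of pairs passed without these tumors, against 26.5% with all. The same shares apply to the pairs given below for Thy1, Acta2 and Fap. F311, HRM-1 and R3T were higher by 0.96, 0.35 and 0.34, and M6, EMT-6 and Met-1 lower by 0.66, 0.48 and 0.37. In that setting F311 was represented by replicates 3 and 4 only.

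**Figure D1:**
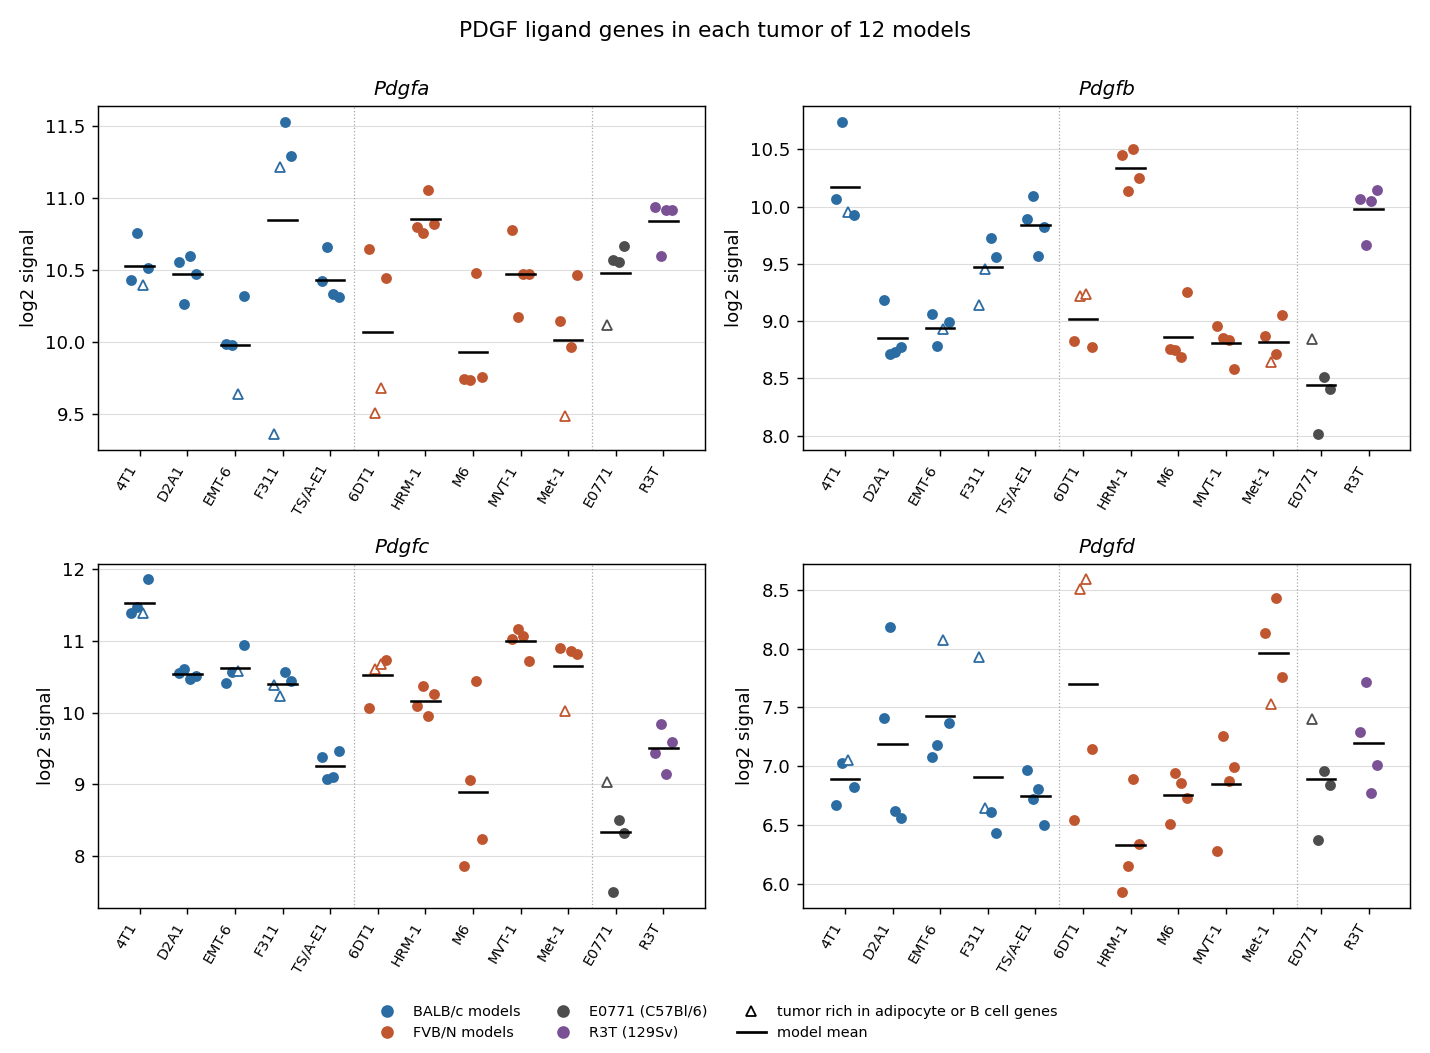
Log2 signal of the 4 PDGF ligand genes (vertical axes, each with its own scale) in each tumor of the 12 models (horizontal axis), with the model mean as a bar and host-rich tumors as open triangles. The 4 4T1 tumors lie above all others for Pdgfc, HRM-1, 4T1, R3T and TS/A-E1 have the 4 highest means for Pdgfb, and F311 replicate 1 at 9.36 lies far below the rest of its model for Pdgfa.

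Pdgfra (gene ID 18595, transcript cluster 10522503), which encodes the receptor for PDGF-A and PDGF-C, was set apart by a single model. HRM-1 tumors had log2 signals of 7.93, 7.99, 9.17 and 8.04, whereas EMT-6 tumors had 10.44, 10.56, 10.80 and 10.55. HRM-1 lay below the mean of the other 11 models by 1.77 (SE 0.26, adjusted p = 1.47e-06), and it differed from each of them in the tests of pairs. Those 11 pairs and EMT-6 against M6 were all of the 12 pairs that passed. The step from M6 at 9.60 to HRM-1 at 8.28 was also the only one between neighbors that passed (adjusted p = 0.00424), although HRM-1 replicate 3 overlapped the M6 tumors. EMT-6 had the highest mean, 10.59, and lay above the others by 0.75 (SE 0.26, adjusted p = 0.0289). That call was lost without EMT-6 replicate 2 (0.76, adjusted p = 0.0615), replicate 3 (0.68, adjusted p = 0.0966) or replicate 4 (0.76, adjusted p = 0.0606). The model with the lowest Pdgfra thus had the highest Pdgfb, the lowest Pdgfd and, as given below, the lowest Pdpn mean.

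Pdgfrb (gene ID 18596, transcript cluster 10456046), which encodes the receptor for PDGF-B and PDGF-D, covered a narrower range. Means ran from 10.33 in TS/A-E1 to 11.55 in D2A1, a range of 1.22 or 2.33-fold (adjusted p = 0.000621). D2A1 tumors had 11.80, 11.39, 11.72 and 11.28, EMT-6 tumors 11.45, 11.68, 11.44 and 11.55, and TS/A-E1 tumors 10.30, 10.32, 10.33 and 10.35. TS/A-E1 tumors were nearly alike and lay below every tumor of the other 2. Against the other 11 models D2A1 was higher by 0.67, EMT-6 higher by 0.66 and TS/A-E1 lower by 0.66 (SE 0.22 and adjusted p = 0.0205, 0.0244 and 0.0240). None of these calls was robust to a single tumor. The first was lost without D2A1 replicate 1 (0.59, adjusted p = 0.0867) or 3 (0.62, adjusted p = 0.0745), the second without EMT-6 replicate 2 (0.61, adjusted p = 0.0814) or 4 (0.65, adjusted p = 0.0594), and the third without any of the 4 TS/A-E1 tumors (adjusted p up to 0.0594). Single tumors stood out elsewhere, with 12.24 in M6 replicate 3, the highest of the series, and 9.10 in 6DT1 replicate 1, the lowest. Without the host-rich tumors 6DT1, then represented by replicates 1 and 4, was lower than the other models by 1.23 (adjusted p = 0.000848), against -0.53 (adjusted p = 0.0767) with all tumors, and R3T was higher by 0.54 (adjusted p = 0.0426). HRM-1, the model lowest in Pdgfra, had a Pdgfrb mean of 11.33 and was not among the models that passed (0.44, adjusted p = 0.152). Both receptors were tested separately, and the difference between them was not tested.

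**Figure D2:**
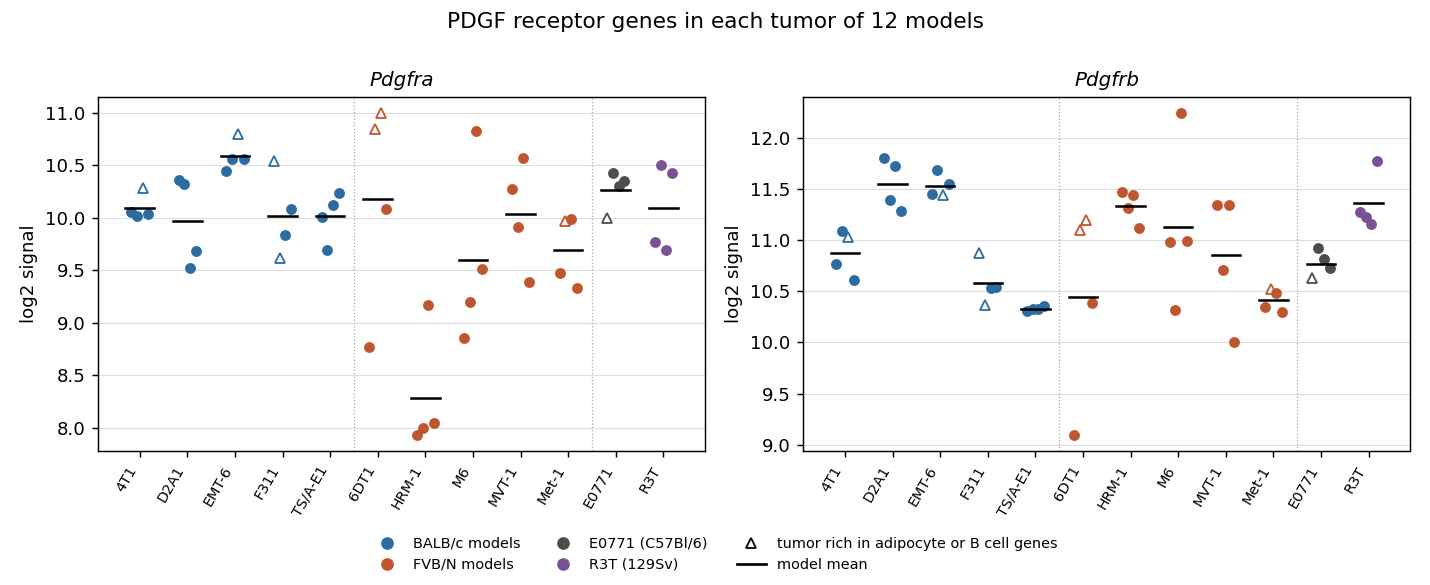
Log2 signal of Pdgfra and Pdgfrb (vertical axes, each with its own scale) in each tumor of the 12 models (horizontal axis), with the model mean as a bar and host-rich tumors as open triangles. For Pdgfra 3 of the 4 HRM-1 tumors lie at 7.93 to 8.04, and for Pdgfrb the 4 TS/A-E1 tumors lie between 10.30 and 10.35.

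Of the stromal markers, Pdpn (gene ID 14726, transcript cluster 10518147) varied most. Means ran from 8.68 in HRM-1 to 11.80 in EMT-6, a range of 3.12 or 8.68-fold, wider than that of 97.1% of all genes (adjusted p = 1.38e-08). EMT-6 tumors had log2 signals of 11.80, 11.88, 11.66 and 11.86, and each lay above every tumor of the other models. HRM-1 tumors had 8.01, 8.49, 9.47 and 8.76. EMT-6 was higher than the other 11 models by 1.91 (SE 0.24, adjusted p = 8.23e-08) and HRM-1 lower by 1.49 (SE 0.24, adjusted p = 7.27e-06). R3T was lower by 0.90, E0771 lower by 0.75 and 6DT1 higher by 0.79. The 6DT1 call was lost without 6DT1 replicate 4 (0.53, adjusted p = 0.147) and the E0771 call without E0771 replicate 2 (-0.60, adjusted p = 0.114). The step from EMT-6 to 6DT1, of 1.03, passed (adjusted p = 0.0167). D2A1 tumors formed pairs, 10.98 and 10.62 against 9.33 and 9.38.

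Thy1 (gene ID 21838, transcript cluster 10584628) ran from 9.33 in M6 to 10.77 in R3T, a range of 1.43 or 2.70-fold (adjusted p = 0.000542). R3T tumors had log2 signals of 10.76, 10.79, 10.71 and 10.81, M6 tumors 8.56, 9.60, 9.74 and 9.43, and E0771 tumors 9.72, 8.82, 9.51 and 9.54. The R3T tumors lay above all tumors of M6 and E0771. R3T was higher than the other 11 models by 0.73 (SE 0.23, adjusted p = 0.0152), and M6 and E0771 were lower by 0.83 and 0.76 (SE 0.23, adjusted p = 0.00589 and 0.0119). The M6 call was lost without M6 replicate 1 (-0.57, adjusted p = 0.0964) and the E0771 call without E0771 replicate 2 (-0.57, adjusted p = 0.110). T cells of mice also carry Thy1, and 5 of the 6 T cell genes measured differed among the models. All 6 had their lowest mean in M6, the model lowest in Thy1, and among tumors of the same model Thy1 and the mean of the T cell genes had r = 0.597 (rho = 0.617, permutation, adjusted p = 0.000112 and 0.0006). Without the host-rich tumors r was 0.390 (rho = 0.480, permutation, adjusted p = 0.0333 and 0.0291). Over the 12 model means r was 0.286 (rho = 0.273, permutation, adjusted p = 0.835 and 0.915). M6 was also lowest in most macrophage genes. Over the 48 tumors T cell genes also passed with Fap (r = 0.443) and Acta2 (0.346) (permutation, adjusted p at most 0.00869). The rho with Acta2 was 0.287 and did not pass (permutation, adjusted p = 0.108). Without the host-rich tumors neither passed. The part of T cells in Thy1 signal was not tested. F311 replicate 1, with 11.29 the highest Thy1 tumor, is the host-rich tumor with a B cell score of 5.01. Pairs that differed numbered 12 of 66, and 20 without 6DT1 replicate 1, the lowest tumor of its model at 8.66. Without the host-rich tumors 31 differed, 6DT1 and Met-1 were lower by 0.70 and 0.64 (adjusted p = 0.0333 and 0.0192), and 4T1 and TS/A-E1 higher by 0.60 and 0.54 (adjusted p = 0.0283 and 0.0241). In that setting 6DT1 was represented by replicates 1 and 4 only.

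Acta2 (gene ID 11475, transcript cluster 10467124) was bright in every tumor, from 10.58 to 12.68. EMT-6 tumors had 12.65, 12.44, 12.48 and 12.68 and M6 tumors 10.84, 11.62, 11.32 and 11.10, with no overlap. The mean of EMT-6 was 12.56, above the other 11 models by 0.83 (SE 0.21, adjusted p = 0.00277), and that of M6 was 11.22, below them by 0.63 (SE 0.21, adjusted p = 0.0235). The M6 call was lost without M6 replicate 1 (-0.51, adjusted p = 0.130) or replicate 4 (-0.59, adjusted p = 0.0734). In 6DT1 the tumors spread from 10.58 in replicate 1, the lowest of the series, to 12.66 in replicate 2 and 12.63 in replicate 3. Pairs that differed numbered 9 of 66, with 4 or 5 without D2A1 replicate 4, EMT-6 replicate 1, 3 or 4, or R3T replicate 3 or 4. Without the host-rich tumors 26 differed, and 6DT1, then represented by replicates 1 and 4, was lower than the other 11 models by 0.79 (adjusted p = 0.00278), against a difference of 0.01 with all tumors.

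Fap (gene ID 14089, transcript cluster 10483081), the classical marker of activated fibroblasts, was dim in many tumors and below the array median in 21 of 48. It had the largest SD within models of the 10 genes, 0.73, and its model means ran from 6.06 in TS/A-E1 to 7.89 in 6DT1, a range of 1.83 or 3.55-fold (adjusted p = 0.0116). TS/A-E1 tumors had log2 signals of 6.00, 6.09, 6.39 and 5.75, HRM-1 tumors 7.91, 7.29, 8.10 and 7.73, and 6DT1 tumors 6.11, 8.78, 9.23 and 7.42. HRM-1 tumors lay above all TS/A-E1 tumors, whereas the 6DT1 tumors spanned most of the range of the series. TS/A-E1 was lower than the other 11 models by 1.07 (SE 0.37, adjusted p = 0.0295), the only call, and it was lost without TS/A-E1 replicate 1 (-1.05, adjusted p = 0.0717), 2 (-1.08, adjusted p = 0.0628) or 4 (-0.96, adjusted p = 0.0998). Pairs that differed numbered 8 of 66, but 16 without 6DT1 replicate 1, 14 without F311 replicate 1 and 18 without the host-rich tumors. HRM-1, low in Pdgfra and Pdpn, was second of the 12 models in Fap, at 7.76, and its difference from the others of 0.79 did not pass (adjusted p = 0.121). The first rank of 6DT1 rested on its host-rich tumors, replicates 2 and 3: its difference from the other models was 0.93 (adjusted p = 0.0613) with all tumors and -0.06 (adjusted p = 0.930) without the host-rich ones. In that setting HRM-1 and R3T passed as higher, by 1.02 and 0.71 (adjusted p = 0.00452 and 0.0486), and E0771 as lower, by 0.99 (adjusted p = 0.0148).

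**Figure D3:**
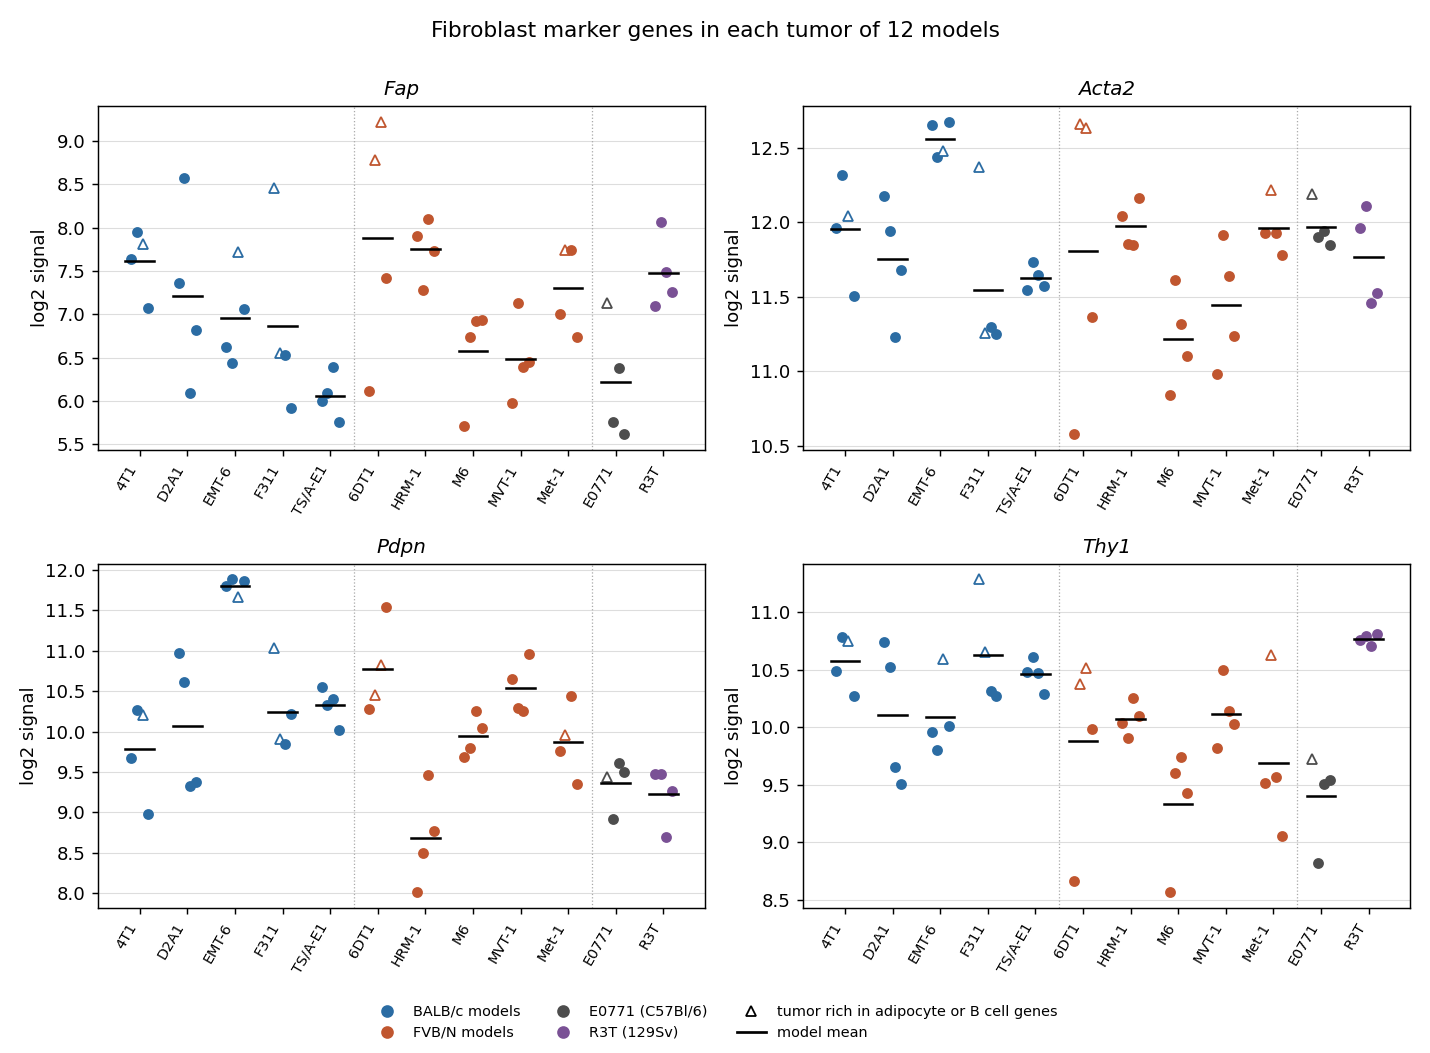
Log2 signal of Fap, Acta2, Pdpn and Thy1 (vertical axes, each with its own scale) in each tumor of the 12 models (horizontal axis), with the model mean as a bar and host-rich tumors as open triangles. EMT-6 tumors are the highest group for Acta2 and Pdpn, while the 6DT1 tumors spread from 6.11 to 9.23 for Fap.

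Seen by model, 35 of the 120 contrasts of a model with the other 11 passed, 15 above and 20 below, with 13.6% and 13.1% of all contrasts over all genes passing above and below. EMT-6 was above the others in 4 genes, namely Pdgfra, Pdgfrb, Acta2 and Pdpn, and below in Pdgfb. E0771 was below the others in 4 genes (Pdgfb, Pdgfc, Pdpn and Thy1) and above in none. M6 was also below in 4 (Pdgfb, Pdgfc, Acta2 and Thy1). HRM-1 was above in Pdgfb and below in Pdgfd, Pdgfra and Pdpn. F311 passed in no gene. All 35 calls stood without the 8 host-rich tumors, a setting in which 17 more passed, giving 52, with 17.3% and 17.8% of all contrasts then passing above and below. The 17 included 6 for Pdgfa, 4 for Thy1 and 3 for Fap. Of the 35 calls, 21 stood without any single tumor and 14 were lost without at least 1.

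**Figure D4:**
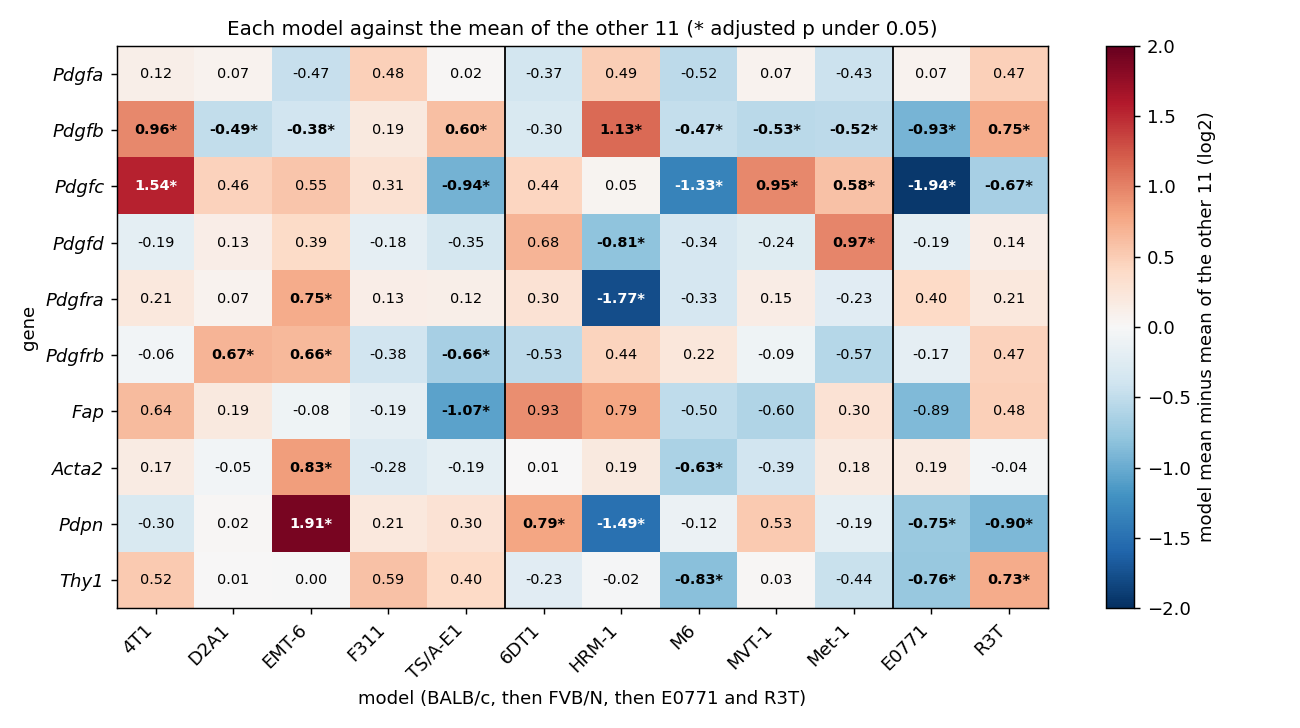
Difference in log2 signal between the mean of each model (horizontal axis) and the mean of the other 11 for each gene (vertical axis), as colors with the value printed and an asterisk where the adjusted p is under 0.05. The deepest differences are Pdgfc in E0771 (-1.94), Pdpn in EMT-6 (1.91), Pdgfra in HRM-1 (-1.77) and Pdgfc in 4T1 (1.54).

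Genes around PDGF signaling also differed among the models, in a test that 70.4% of all genes passed. The median range over all genes was 0.68. All 7 measured genes for processing or binding of PDGF passed the F-test, with a median range of 1.71. The largest range among them was that of Plau, the urokinase that can cut PDGF-D, from 8.52 ± 0.19 in Met-1 to 12.54 ± 0.07 in HRM-1 (SD, n = 4 each, adjusted p = 4.85e-14 by limma). Plat, the tissue plasminogen activator that cuts PDGF-C, also ran from Met-1, at 8.61 ± 0.36, to HRM-1, at 10.52 ± 0.17 (SD, n = 4 each, adjusted p = 2.08e-09 by limma). Over the 12 model means, Pdgfd and the mean of these genes had r = -0.399 (permutation p = 0.194, adjusted p = 0.750) and rho = -0.294 (permutation p = 0.354, adjusted p = 0.915), with r = 0.0455 without Met-1 and 6DT1. Among tumors of the same model r was 0.121 over all 48 tumors (rho = 0.192, permutation, adjusted p = 0.531 and 0.351). Without the host-rich tumors it was 0.469 (rho = 0.600, permutation, adjusted p = 0.030 and 0.016). Pdgfra (0.714), Thy1 (0.707), Pdpn (0.703) and Pdgfc (0.693) passed with these genes there too (permutation, adjusted p at most 0.0374). For Pdgfc rho did not (0.393, permutation, adjusted p = 0.109). Over all 48 tumors only Pdpn and Pdgfc passed. All 16 genes of signaling below the receptors passed the F-test, but over a median range of only 0.81. The adaptor Gab1 ran from 9.27 ± 0.40 in R3T to 11.34 ± 0.25 in M6 (SD, n = 4 each, adjusted p = 1.64e-17 by limma). All 12 early response genes of growth factors passed, with a median range of 1.38, and Egr1, a transcription factor induced by many growth factors, ran from 8.27 ± 0.39 in E0771 to 10.73 ± 0.25 in M6 (SD, n = 4 each, adjusted p = 1.80e-12 by limma).

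Markers of cell types set the background for these genes. Of the fibroblast matrix genes 10 of 12 passed, with a median range of 1.79, and Fn1, which encodes fibronectin, ran from 11.35 ± 0.65 in E0771 to 13.28 ± 0.02 in 4T1 (SD, n = 4 each, adjusted p = 1.07e-11 by limma). Of genes that mark fibroblast subsets 9 of 10 passed, and S100a4 ran from 8.36 ± 0.23 in Met-1 to 11.70 ± 0.14 in R3T (SD, n = 4 each, adjusted p = 3.21e-10 by limma). Of mesenchymal transcription factors 7 of 8 passed, of pericyte genes 6 of 7 and of smooth muscle genes 4 of 8. The model lowest in Fn1, E0771, was also lowest in Col1a1, Pdgfb and Pdgfc. The lowest model differed among the matrix genes, however. Col5a1 and Col6a1 were lowest in Met-1, and several others were lowest in HRM-1, the model lowest in Pdgfra, Pdgfd and Pdpn. Endothelial genes passed in 6 of 8 cases, lymphatic genes in 3 of 4, luminal genes in 7 of 7, basal genes in 4 of 6, T cell genes in 5 of 6, macrophage genes in 7 of 7 and platelet genes in 2 of 4. Adipocyte genes passed in 1 of 8 cases, and B cell and skeletal muscle genes in 0 of 5 each. The share over all genes was 70.4%.

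The comparison of strains asked whether the BALB/c and FVB/N models differed as groups, with the model as the replicate (5 against 5). Strain and origin coincide in these 10 models and cannot be told apart. None of the 10 genes passed, and over all genes 38 of 19938, or 0.191%, passed, with 1597 at an unadjusted p under 0.05. Thy1 came nearest, with model means of 10.09 to 10.63 in BALB/c and 9.33 to 10.12 in FVB/N models. These ranges overlapped slightly, and the difference of 0.55 (SE 0.17) had an adjusted p of 0.418 in limma. Pdgfra was higher in BALB/c by 0.58 (SE 0.33, adjusted p = 0.720), and by 0.26 without HRM-1. Pdpn was higher by 0.48 (SE 0.47, adjusted p = 0.834), and by 0.14 without EMT-6. Both differences thus leaned on a single model.

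Whether the genes were high in the same models was examined with the 12 model means. None of the 45 pairs of genes passed a permutation test after adjustment, and 5 had an unadjusted p under 0.05. The largest correlation was that of Pdgfb with Thy1, with r = 0.713 (permutation p = 0.0107, adjusted p = 0.342) and rho = 0.531 (permutation p = 0.0799, adjusted p = 0.909), and r was 0.842 without the 2 models farthest from the median of Pdgfb. Pdgfra and Pdpn had r = 0.666 (permutation p = 0.0324, adjusted p = 0.342) and rho = 0.357 (permutation p = 0.257, adjusted p = 0.909). This relation rested on HRM-1 and EMT-6, without which r was -0.0445. No ligand passed with a receptor that binds it. The values were r = -0.318 for Pdgfa and Pdgfra, 0.0391 for Pdgfc and Pdgfra, 0.0816 for Pdgfb and Pdgfrb and -0.218 for Pdgfd and Pdgfrb (permutation p = 0.354, 0.903, 0.795 and 0.498, adjusted p at least 0.779 for each). The rho values were -0.0490, 0.147, 0.119 and 0 (permutation p = 0.887, 0.652, 0.714 and 1). Pdgfb and Pdgfra had r = -0.451 (permutation p = 0.127, adjusted p = 0.570) and rho = -0.147 (permutation p = 0.652), with r = -0.0038 without HRM-1 and 4T1. With 12 means, relations of this size cannot be distinguished from none.

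Among tumors of the same model the picture was different in form, although the 2 analyses were not compared by a test. Here each tumor was taken as its deviation from the mean of its model, and deviations were permuted within models. Values of a tumor share an array, so any difference in scale between arrays moves all genes together, and centring the arrays left 19 of the 20 pairs that passed. Of the 45 pairs 20 passed, 16 positive and 4 negative, and 18 passed with rho. Pdgfd, Fap, Acta2 and Thy1 moved together, with r = 0.863 for Pdgfd and Fap, 0.821 for Fap and Thy1, 0.812 for Fap and Acta2, 0.758 for Acta2 and Thy1, 0.745 for Pdgfd and Acta2 and 0.691 for Pdgfd and Thy1 (n = 48, permutation, adjusted p at most 0.000675 for each). The corresponding rho values were 0.765, 0.808, 0.736, 0.683, 0.642 and 0.685 (permutation, adjusted p at most 0.00219). D2A1 shows it in single tumors: for replicates 1 to 4 Pdgfd was 7.41, 8.18, 6.62 and 6.56, Fap 7.36, 8.58, 6.09 and 6.81, and Thy1 10.75, 10.52, 9.65 and 9.50. The same 2 tumors were high in each of these genes. Without the 2 tumors farthest from the model mean of the first gene, these 6 values of r were 0.598 to 0.815.

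The receptors formed a second pair. Pdgfra and Pdgfrb had r = 0.806 (permutation p = 0.00011, adjusted p = 0.000707) and rho = 0.663 (permutation p = 0.00013, adjusted p = 0.000975), and r was 0.678 without 6DT1 replicate 1 and M6 replicate 3. The M6 tumors show the relation, with Pdgfra at 8.85, 9.20, 10.83 and 9.51 and Pdgfrb at 10.98, 10.31, 12.24 and 10.99 in replicates 1 to 4. Replicate 3 was highest in both. Pdgfra also passed with Thy1 (r = 0.629), Fap (0.601), Pdgfd (0.568), Acta2 (0.564) and Pdpn (0.449), with permutation, adjusted p at most 0.0171. The rho values were 0.511, 0.500, 0.466, 0.397 and 0.478, and that with Acta2 did not pass (permutation, adjusted p = 0.0691). Pdgfrb passed with Pdgfra only. Pdpn passed with Thy1 (r = 0.536), Pdgfd (0.501), Fap (0.457) and Pdgfra, with rho of 0.535, 0.522, 0.432 and 0.478 (permutation, adjusted p at most 0.0336 for r).

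The other ligands behaved otherwise. Pdgfa was negatively related to Fap (r = -0.671), Acta2 (-0.641), Pdgfd (-0.598) and Thy1 (-0.534), with rho of -0.609, -0.525, -0.500 and -0.447 (permutation, adjusted p at most 0.0101 for r and 0.0251 for rho). In 6DT1, for example, replicates 1 to 4 had Pdgfa at 10.65, 9.51, 9.68 and 10.45 and Fap at 6.11, 8.78, 9.23 and 7.42. The tumors low in Pdgfa there were the host-rich replicates 2 and 3. In F311 the host-rich replicate 1 was low at 9.36, but the other host-rich tumor, replicate 2, was among the highest of the series at 11.21. Without the 8 host-rich tumors all 4 negative relations fell below the threshold, with r of -0.220, -0.228, -0.257 and -0.0201 in the order given (n = 40, permutation, adjusted p of 0.226 to 0.927). Pdgfc passed with Pdgfd only (r = 0.308, adjusted p = 0.0101, and rho = 0.328, adjusted p = 0.0599, by permutation), and Pdgfb passed with no gene (r of 0.0302 to 0.212). In these 40 tumors 12 pairs passed, all positive, among them the 6 pairs of Pdgfd, Fap, Acta2 and Thy1 (r of 0.598 to 0.787) and both receptors (r = 0.734). The 8 pairs that no longer passed were the 4 with Pdgfa and those of Pdgfra with Pdgfd, Fap, Acta2 and Thy1. For Pdgfra r was 0.563 with Thy1, 0.488 with Fap and 0.447 with Pdgfd, each just above the threshold of 0.05 (n = 40, permutation, adjusted p = 0.0527), and 0.320 with Acta2 (adjusted p = 0.282).

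**Figure D5:**
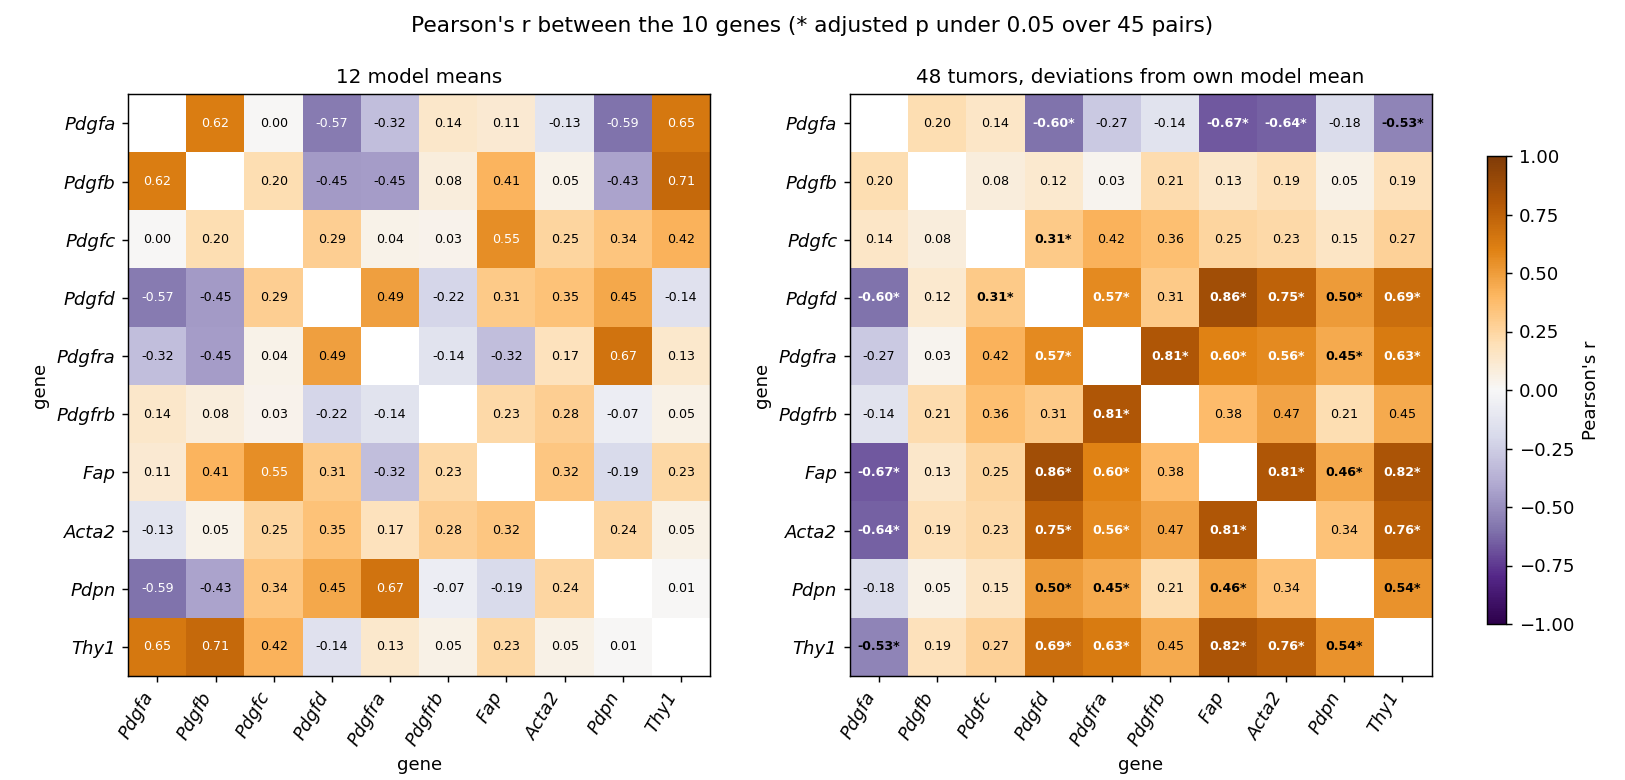
Pearson's r between the 10 genes (both axes) over 12 model means on the left and over 48 tumors, as deviations from their model mean, on the right, with an asterisk where the adjusted p of the permutation test is under 0.05. No pair carries an asterisk on the left and 20 do on the right, most of them among Pdgfd, Pdgfra, Fap, Acta2, Pdpn and Thy1.

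The same deviations were set against the mean of each list of cell type and pathway genes. Over model means none of the 180 relations passed (17 had an unadjusted permutation p under 0.05), and within models 95 did, 80 positive and 15 negative. Fap (r = 0.867), Pdgfd (0.848), Thy1 (0.826), Acta2 (0.725), Pdpn (0.710) and Pdgfra (0.678) followed the fibroblast matrix genes, with rho of 0.868, 0.827, 0.827, 0.675, 0.691 and 0.606 (permutation, adjusted p at most 0.00027 for each r). These relations were not particular to fibroblast genes, since pericyte and endothelial genes also passed with Fap (r = 0.773 and 0.735), Acta2 (0.774 and 0.736), Pdgfd (0.717 and 0.667), Thy1 (0.688 and 0.688) and Pdgfra (0.554 and 0.616). Basal and luminal epithelial genes passed with Fap (0.718 and 0.601), Acta2 (0.762 and 0.584) and Pdgfd (0.664 and 0.653), and lymphatic genes with Thy1 (0.748). The rho values of these 17 relations were 0.443 to 0.735 (permutation, adjusted p at most 0.0104 for r and 0.033 for rho). Both receptors followed the mesenchymal transcription factors such as Twist1 and Zeb1, with r = 0.820 for Pdgfra and 0.757 for Pdgfrb (rho = 0.786 and 0.728, permutation, adjusted p = 0.000113 and 0.00143 for r). Acta2 was closest to the smooth muscle genes (r = 0.853, rho = 0.837, permutation, adjusted p = 0.000113). Pdgfc passed with the macrophage genes (r = 0.647, rho = 0.556, permutation, adjusted p = 0.000926), and Pdgfa with the early response genes (r = 0.736, rho = 0.754, permutation, adjusted p = 0.0002). Pdgfc also passed with genes for processing or binding of PDGF (r = 0.648), fibroblast subsets (0.456), fibroblast matrix (0.432) and pericytes (0.328). The rho values were 0.366, 0.340, 0.322 and 0.346 (permutation, adjusted p at most 0.0348 for r and 0.0787 for rho). Only the first of these rho values passed. The macrophage genes also passed with Thy1 (0.663), Fap (0.616), Pdgfd (0.560) and Pdgfra (0.536) (permutation, adjusted p at most 0.0348 for r). The rho values were 0.510, 0.526, 0.485 and 0.344, and that with Pdgfra did not pass (permutation, adjusted p = 0.0787). Pdgfa was negatively related to 10 lists, most closely to lymphatic endothelium (r = -0.756), and also to basal (-0.656), smooth muscle (-0.638), endothelial (-0.622), T cell (-0.606) and B cell genes (-0.596), with rho of -0.552, -0.684, -0.534, -0.564, -0.451 and -0.460 (permutation, adjusted p at most 0.00688 for r). None of the 10 passed without the host-rich tumors. For adipocyte and B cell genes, whose scores defined those tumors, this cannot show that the relation rested on them. Luminal genes, at r = -0.5605 against -0.5375 with all tumors, and T cell genes, at -0.399, came just short (n = 40, permutation, adjusted p = 0.0503 for each).

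The adipocyte genes moved with several of the members too. Their mean had r = 0.798 with Fap, 0.786 with Acta2, 0.691 with Pdgfd, 0.650 with Thy1 and -0.708 with Pdgfa (rho of 0.732, 0.713, 0.574, 0.615 and -0.597, permutation, adjusted p at most 0.0012 for r). Without the 8 host-rich tumors the values were 0.537 for Fap and 0.581 for Acta2, which passed, and 0.442 for Pdgfd, 0.331 for Thy1 and -0.274 for Pdgfa, which did not. Host-rich tumors were chosen by their adipocyte or B cell score, so leaving them out narrows the range of the adipocyte score. The lower values therefore cannot show that these relations rested on the tumors left out. In those 40 tumors 44 of 180 relations passed, all positive. Of the pericyte, endothelial, basal, luminal and lymphatic relations given above, those of pericyte genes with Thy1 (0.599) and Pdgfra (0.449) and of endothelial genes with Pdgfra (0.583) still passed. Lymphatic genes also passed there with Pdpn (0.734), Pdgfd (0.703) and Acta2 (0.562) (permutation, adjusted p at most 0.0355 for r). The rho with Acta2 did not pass (0.450, permutation, adjusted p = 0.0867). Over all 48 tumors these values of r were 0.533, 0.595 and 0.634. Lymphatic relations with Thy1 (0.588), Fap (0.529) and Pdgfra (0.314) did not pass without the host-rich tumors. The relations with fibroblast matrix genes stayed at 0.836 for Fap, 0.839 for Pdgfd, 0.866 for Thy1, 0.720 for Acta2, 0.831 for Pdpn and 0.690 for Pdgfra (n = 40, permutation, adjusted p at most 0.00635). Those of the receptors with the mesenchymal transcription factors were 0.813 and 0.739, that of Acta2 with smooth muscle genes 0.724, that of Pdgfc with macrophage genes 0.666 and that of Pdgfa with early response genes 0.613. For Acta2 the highest r was then 0.740, with fibroblast subset genes, although rho was higher with smooth muscle genes (0.751 against 0.693). Macrophage genes also still passed with Thy1 (0.777), Fap (0.6705) and Pdgfd (0.575) (permutation, adjusted p at most 0.0136). Their relation with Pdgfra, at 0.577, came just short (permutation, adjusted p = 0.0503). The share of fat or of other host tissue in a tumor was not measured, and its part in these relations was not tested.

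For each member, the genes whose means over the 12 models were most like its own are given as a description, with r over the 48 tumors in parentheses. Pdgfb was followed most closely by Tmprss11e at 0.965 (0.897), Prss22 at 0.951 (0.887) and Itga2 at 0.943 (0.879), genes of membrane and secreted serine proteases and of an integrin of epithelial cells and platelets. These were the highest values found for any member. Pdgfc was followed by C1qtnf1 at 0.895 (0.826), Ace at 0.881 (0.764) and Eif4g2 at 0.867 (0.607), Pdgfa by Rras2 at 0.928 (0.728), Slc17a5 at 0.879 (0.576) and Git1 at 0.873 (0.846), and Pdgfd by Ndufa1 at 0.931 (0.713), Mgst1 at 0.924 (0.843) and Chl1 at 0.921 (0.793). The receptor gene Pdgfra was followed by Parp8 at 0.914 (0.600), Atg4c at 0.856 (0.538) and Ifitm3 at 0.851 (0.568), and Pdgfrb by Rhobtb3 at 0.898 (0.485), Edn1 at 0.847 (0.637) and Ttl at 0.840 (0.653). Fap was followed by Cygb at 0.831 (0.861), Vstm4 at 0.830 (0.798) and Fhl5 at 0.830 (0.801), and it was the only member for which tumors gave a higher value than models for the nearest gene. Pdpn was followed by Slc27a3 at 0.875 (0.783), Angpt4 at 0.872 (0.641) and Marveld1 at 0.837 (0.700), and Thy1 by Fam217b at 0.925 (0.718), Acox3 at 0.924 (0.831) and Zfp558 at 0.909 (0.612). For Acta2 the nearest were Znhit6 at 0.913 (0.139), Prpf38b at 0.862 (0.437) and Txnrd1 at 0.859 (0.290), with much lower values over the tumors. Each was picked as one of the 3 highest among the genes that passed the F-test, so high values over 12 points are in part the product of that choice.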

How the data were processed

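RNA of 48 tumors had been hybridized to Affymetrix Mouse Gene 1.0 ST arrays, 1 tumor per array. The values deposited by the authors are processed log2 signal of 35556 transcript clusters, used unchanged. The software and normalization behind them were not given in the sources used here. Groups and replicate numbers came from the sample titles. Clusters annotated with a single gene symbol were kept (21789), the one with the highest mean for genes with several, giving 19938 genes with no filter on dim ones. The members and gene lists were chosen with earlier results of these data known.

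limma 3.58.1 in R 4.3.3 was fitted with 1 group per model: an F-test, each model against the mean of the other 11 (p adjusted over all genes and all 12 contrasts), and all 66 pairs (adjusted over genes and pairs). Strains were compared on model means. The threshold was 0.05 after Benjamini-Hochberg adjustment. Correlations used 2-sided permutation tests with 100000 resamples (smallest p 1e-05), adjusted over 45 pairs of members or 180 pairs with lists, in Python 3.11.15 with numpy 2.4.6 and scipy 1.17.1. A list score averages, over the list, each gene's deviation from its mean over 48 tumors. Tumors with an adipocyte or B cell score over 2.5 were called host-rich.

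Genes named are the members, up to 4 of each list with the smallest F-test p, and the 3 genes most like each member among those that passed, predicted genes aside. No arrays were duplicates (highest r 0.997). The fits were checked on simulated log2 values with known changes. Promoter windows are from RefSeq (GRCm38.p6), and cluster coordinates, whose build no source gives, are not printed. Alternatives were quantile normalization, centring of arrays, the mean of a gene's clusters, a filter on dim genes, an intensity trend, a robust prior, the methods' one-way test, a replicate block, model medians, tumors with the model as a random block, and leaving out tumors or models. Relations with lists without the host-rich tumors were added after seeing the data.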

Additional observations from a re-analysis of the deposited data

Results flagged for a closer look

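In each of the 120 groups of 4 tumors (10 genes in 12 models), the gap between an extreme tumor and its nearest neighbor was compared with the range of the group. The ratio exceeded Dixon's 95% critical value for 4 values in 11 groups. Chance alone gives about 1 in 20 groups, and values of different genes in a tumor are not independent.

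F311 replicate 1 stood apart in 3 genes. Its log2 signal was 9.36 for Pdgfa (next tumor of the model 11.21), 7.93 for Pdgfd (next 6.65) and 12.37 for Acta2 (next 11.30). It is a host-rich tumor. Met-1 replicate 2, also host-rich, was low in Pdgfc at 10.03 (next 10.81), and 4T1 replicate 3, rich in B cell genes, was high in Pdgfra at 10.28 (next 10.05).

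In M6, replicate 3 was high in Pdgfa at 10.48 (next 9.76), replicate 4 was high in Pdgfb at 9.25 (next 8.75) and replicate 1 was low in Fap at 5.70 (next 6.74). HRM-1 replicate 3 was high in Pdgfra at 9.17 (next 8.04). R3T replicate 2 was low in Pdgfa at 10.60 (next 10.92), and D2A1 replicate 1 was high in Pdgfb at 9.18 (next 8.78).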

How the results depend on the processing

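All 10 members passed the F-test, and none the strain test, under every alternative run, including each fit without a tumor or a model. The genes passing the F-test were 13760 to 14270 without a single tumor. Member contrasts above the other 11 models were 12 to 19 and those below 18 to 25, and pairs were 177 to 223 (main 15, 20 and 189). Without the host-rich tumors, 23 contrasts passed above, 29 below and 259 pairs, and 12 relations within models in place of 20. The share of pairs passing over all genes also rose in that setting, from 26.5% to 33.8%. Across models, r then turned from 0.0391 to -0.0815 for Pdgfc and Pdgfra and from -0.140 to 0.0883 for Pdgfra and Pdgfrb. The genes passing between strains numbered 489 with tumors and the model as a random block and 446 with a replicate block added, against 38, and 19 to 44 without a single model (19 without EMT-6, 21 without MVT-1, 22 without 4T1 and 24 without Met-1). Tumors with the same replicate number did not deviate together (mean r = 0.022). With a replicate block in the fit of models, 14009 genes and 10 members passed the F-test, and 14 contrasts above, 20 below and 193 pairs passed. Of the member calls it changed Met-1 for Pdgfc alone (0.58, adjusted p = 0.0555), which centring of arrays also ended (0.57, adjusted p = 0.0594). Centring ended Fap with Pdpn within models (r = 0.426, adjusted p = 0.0593 by permutation), and quantile normalization left 5 pairs for Acta2. The cause of these changes was not tested.

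The unstated normalization, 4 tumors a model and dim Pdgfd and Fap signal limit these results. Signal of stroma and implanted cells cannot be told apart. In tests of models and of relations within models, p-values rest on the spread between tumors of a line. Those of strains and of relations over model means rest on the spread between models.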
